A study of Homo sapiens with 18 samples.

Results

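The 8 genes described here encode parts of the hemidesmosome and of laminin-332, the extracellular protein it binds. They are LAMA3 and LAMB3, which encode chains of laminin-332, ITGA6 and ITGB4, which encode both subunits of the integrin α6β4, COL17A1 and CD151, which encode further membrane proteins, and DST and PLEC, which encode the linkers to keratin filaments. Each was found by its symbol as 1 row of the raw count table, so the group comprises 8 of 19901 genes. All 8 passed the filter on low counts, which left 15475 genes to be tested.

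The values come from mRNA sequencing of 18 libraries of 3 head and neck squamous cell carcinoma (HNSCC) cell lines, with 6 groups of 3 libraries. Detroit 562 was derived from a metastasis of a pharyngeal tumor, FaDu from a primary tumor of the hypopharynx and SCC-9 from a primary tumor of the tongue. All are established lines without an introduced allele, and in each line cells left untreated (control) were compared with cells given 50 ng/mL HGF, the ligand of the receptor tyrosine kinase Met. The paper and the sample records give a treatment of 16 h, whereas the series record gives 48 h. The medium of SCC-9 (DMEM F12) held 400 ng/mL hydrocortisone and that of both other lines was MEM-α, so line and medium cannot be told apart in any comparison of SCC-9 with another line. Wells were seeded with 750000 cells, and the cells were detached with trypsin before lysis. The libraries of a group are repeats of the experiment on 1 line, so p-values measure the spread between these repeats and not between tumors.

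The libraries held between 35304770 and 44003970 counts on genes, and the smallest count of any of the 8 genes in any library was 1536. Epithelial markers (EPCAM, CDH1, KRT8 and KRT18) summed to between 1430 and 6260 CPM (counts scaled to a common total) in every library, and the basal squamous markers KRT5, KRT14 and TP63 to between 673 and 7250. Endothelial markers (PECAM1 and CDH5) reached at most 3.4 and leukocyte markers (PTPRC and CD3E) at most 0.166 CPM. The fibroblast list (COL1A1, COL1A2 and PDGFRB) summed to between 3.39 and 97.4 CPM, with its highest values in SCC-9.

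Hemidesmosomes fasten basal epithelial cells to the basement membrane. On the cell side the integrin α6β4 binds laminin-332, and plectin and the epithelial product of DST connect the integrin and collagen XVII to the keratin cytoskeleton. Laminin-332 and α6β4 are also well known from migrating keratinocytes and from squamous cell carcinomas, in which hemidesmosomes are taken apart and rebuilt as cells move.

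HGF-treated cells had higher counts of a subset of these genes. In bulk samples, a change in the share of cells that express a gene and a change in RNA per cell cannot be told apart. In Detroit 562, ITGA6, LAMA3 and COL17A1 rose between 1.45-fold and 1.59-fold, while ITGB4, LAMB3 and CD151 had log2 fold changes between −0.03 and 0.07 and were not called. In FaDu, LAMA3, PLEC and ITGA6 had folds between 1.45 and 1.53, which were called only when the repeats of the experiment entered the model. In SCC-9 no member was called in either model, and the highest fold was the 1.26 of LAMA3. ITGA6, LAMA3, COL17A1, DST and PLEC had more normalized counts with HGF than without in each of the 9 pairs of libraries from the same repeat and line, a pattern that 7.7% of all genes tested showed.

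LAMA3 encodes the laminin α3 chain, which carries the site that integrins bind. It lies on chromosome 18 from 23689443 to 23955066 on the plus strand (GRCh38), and its count adds the long and the short transcripts, which start from different promoters. In Detroit 562, the normalized counts of LAMA3 (counts scaled to a common library size) were 10555, 10478 and 15219 in control repeats 1, 2 and 3 and 15059, 14442.5 and 25616 in the HGF repeats. The third HGF library was the highest, and the ranges of both groups overlapped, because control repeat 3 lay above HGF repeats 1 and 2. In FaDu, the corresponding values were 1462, 2175 and 1903 without and 2170, 2769 and 3543 with HGF, so that only HGF repeat 1 lay below a control, by a few counts. In SCC-9, LAMA3 had 60623, 53300 and 47437 normalized counts without and 78508, 61456.5 and 64044 with HGF, and all HGF libraries lay above all controls. Such a separation was seen for 8.3% of all genes tested in SCC-9.

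LAMB3 encodes the laminin β3 chain and lies on chromosome 1 from 209614870 to 209652466 on the minus strand. Its normalized counts in Detroit 562 were 23588, 21354 and 21173 in the controls and 22399, 18924 and 28260 with HGF, and only repeat 3 was higher with HGF. In FaDu they were 7390, 8646 and 8230 without and 8075, 9023 and 10125 with HGF, and in SCC-9 they were 37872, 34267 and 31630 without and 46453, 38669 and 40027 with HGF. The groups overlapped in Detroit 562 and FaDu but not in SCC-9, where all HGF libraries lay above all controls, as for 8.3% of all genes tested.

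ITGA6 encodes the integrin α6 subunit, which pairs with β4 in hemidesmosomes and with β1 elsewhere. It lies on chromosome 2 from 172427354 to 172506282 on the plus strand. In Detroit 562 it had 23845, 26068 and 40856 normalized counts without and 40906, 42136 and 61564 with HGF. The corresponding counts in FaDu were 5383, 6115 and 6951 without and 8375, 8162 and 10260 with HGF, and in SCC-9 they were 23870, 21493 and 21709 without and 28776, 24040 and 26738 with HGF. ITGA6 was the only member whose HGF libraries lay above all controls in each of the 3 lines, although in Detroit 562 control repeat 3 and HGF repeat 1 lay close together. Such a separation was seen for 18.1% of all genes tested in Detroit 562, for 4.05% in FaDu and for 8.3% in SCC-9.

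ITGB4 encodes the integrin β4 subunit, whose long cytoplasmic tail binds plectin, and lies on chromosome 17 from 75721328 to 75757818 on the plus strand. In Detroit 562 its normalized counts were 33259, 31362 and 34299 without and 36047, 33071 and 32270 with HGF, and in SCC-9 they were 61711, 63297 and 56677 without and 59564, 61288 and 55421 with HGF. In both lines the groups overlapped. In FaDu the counts were 13850, 13173 and 14668 without and 16718, 14544 and 21363 with HGF, and only HGF repeat 2 lay below a control.

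COL17A1 encodes collagen XVII, a transmembrane collagen that reaches from the plakins into the basement membrane, and lies on chromosome 10 from 104031286 to 104086002 on the minus strand. In Detroit 562 it had 26399, 23977 and 37771 normalized counts without and 39740, 35543.5 and 52366 with HGF. In FaDu the counts were 10922, 12021 and 15789 without and 13371, 14160 and 20939 with HGF, and in SCC-9 they ranged from 24938 to 26927 without and from 26595 to 27951 with HGF. As for LAMA3, repeat 3 was the highest of both arms in Detroit 562, and the groups overlapped through it. The same repeat was the highest of both arms in FaDu.

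CD151, a tetraspanin that binds laminin-binding integrins, lies on chromosome 11 from 832843 to 839831 on the plus strand. Its normalized counts lay between 5992 and 7141 without and between 5663 and 7450 with HGF in Detroit 562. They lay between 4022 and 4922 without and between 3918 and 4856 with HGF in FaDu, and between 7168 and 7517 without and between 6977 and 7145 with HGF in SCC-9. The groups overlapped in Detroit 562 and FaDu, whereas in SCC-9 all HGF libraries lay below all controls, as for 9.12% of all genes tested. In 7 of 9 pairs it was lower with HGF, with log2 ratios of HGF to control between −0.13 and 0.11 over the 9 pairs.

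DST encodes dystonin, whose epithelial isoform BP230 sits in the inner plaque, and lies on chromosome 6 from 56457987 to 56954628 on the minus strand. Its count adds the epithelial, neuronal and muscle isoforms. In Detroit 562 it had between 12364 and 16229 normalized counts without and between 13829 and 21767 with HGF. The ranges were 8466 to 9508 without and 9021 to 12879 with HGF in FaDu, and 8718 to 10371 without and 10194 to 10436 with HGF in SCC-9. PLEC encodes plectin, which joins the β4 tail to keratin filaments, and lies on chromosome 8 from 143915147 to 143976734 on the minus strand. In Detroit 562 it had between 38001 and 55214 normalized counts without and between 47629 and 64251 with HGF. In FaDu the range was 13877 to 19708 without and 18640 to 31965 with HGF, and in SCC-9 it was 36472 to 44695 without and 39821 to 47933 with HGF. For both genes the groups overlapped in every line, while each of the 9 pairs was higher with HGF.

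**Figure D1:**
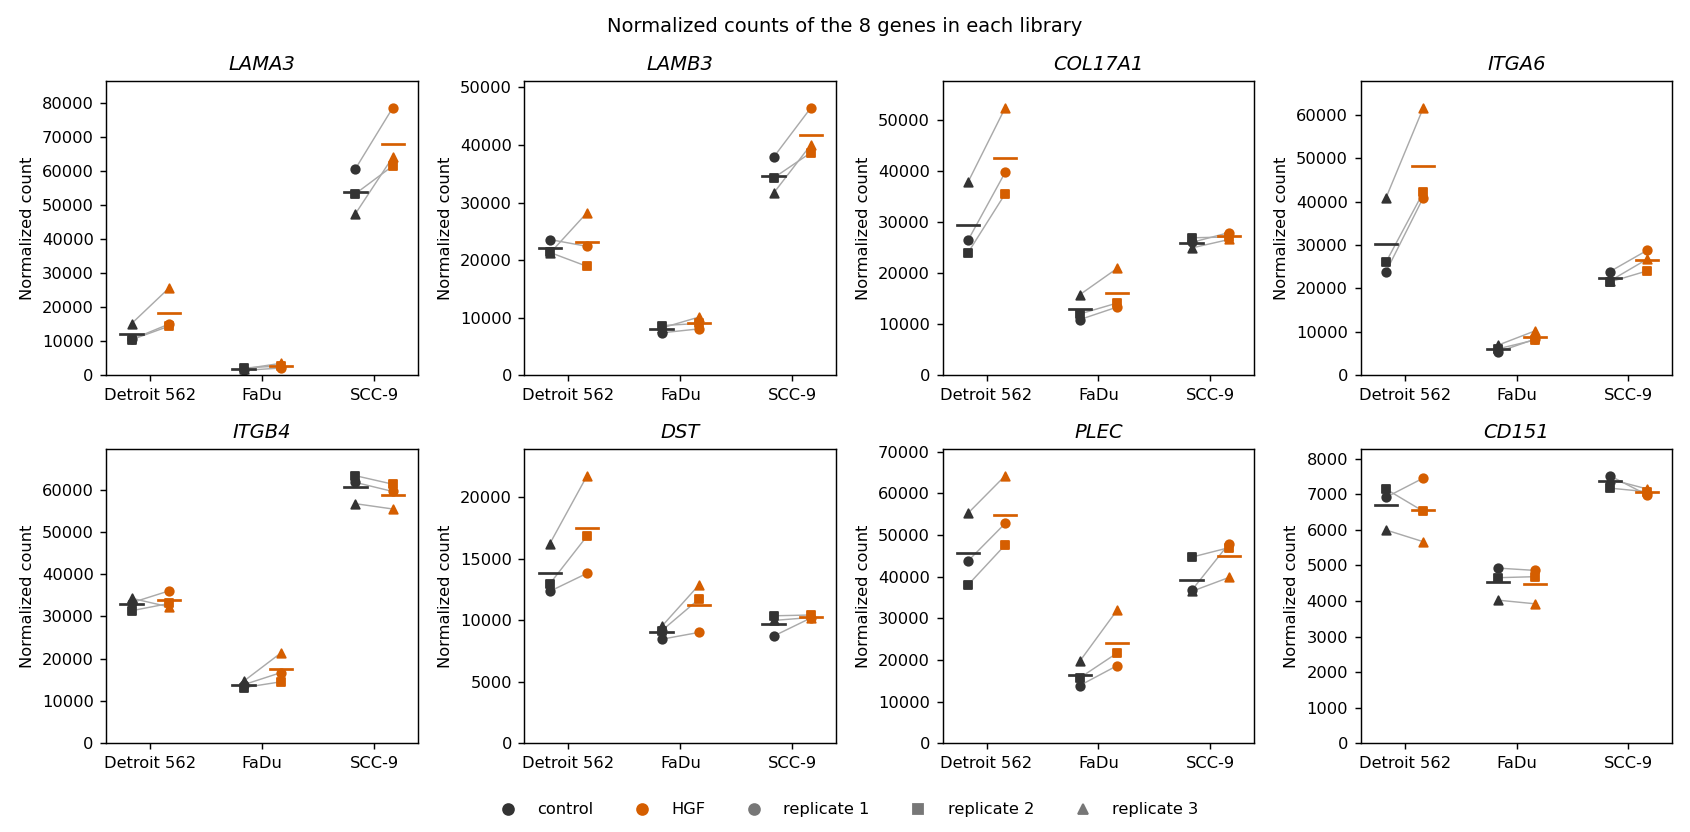
Normalized counts (linear axes from 0) of each gene in every library, by cell line and treatment, with horizontal bars for group means and gray lines joining control and HGF libraries of the same repeat. All lines rise for LAMA3, ITGA6, COL17A1, DST and PLEC, and repeat 3 (triangles) is the highest of both arms in Detroit 562 for LAMA3, COL17A1, ITGA6, DST and PLEC.

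Promoter windows (250 bases before to 50 bases after a start site, from RefSeq on GRCh38.p14) were found for 5 of the 8 genes, LAMA3, LAMB3, COL17A1, ITGA6 and DST, with 10 windows in all. The 4 windows below are shown for the genes called in Detroit 562 and for LAMB3, the partner chain of LAMA3. Of the 3 windows of LAMB3, the only one with AP-1 letters is shown. Of the 2 windows of ITGA6, which overlap, the one with 3 GC boxes is shown, and the other held only the first of these 3. The shares over all windows given below do not allow for this choice among windows. Capitals mark matches on either strand to the letters of an AP-1 site (TGANTCA) or of a GC box (GGGCGG), and no marked match overlaps another.
LAMA3, chr18:23872770-23873069, plus strand: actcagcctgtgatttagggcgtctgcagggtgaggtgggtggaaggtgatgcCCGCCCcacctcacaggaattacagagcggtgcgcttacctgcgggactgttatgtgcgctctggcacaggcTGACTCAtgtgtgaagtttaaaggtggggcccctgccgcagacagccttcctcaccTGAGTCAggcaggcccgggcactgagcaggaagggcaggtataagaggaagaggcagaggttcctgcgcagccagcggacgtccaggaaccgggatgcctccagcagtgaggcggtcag
LAMB3, chr1:209651325-209651624, minus strand: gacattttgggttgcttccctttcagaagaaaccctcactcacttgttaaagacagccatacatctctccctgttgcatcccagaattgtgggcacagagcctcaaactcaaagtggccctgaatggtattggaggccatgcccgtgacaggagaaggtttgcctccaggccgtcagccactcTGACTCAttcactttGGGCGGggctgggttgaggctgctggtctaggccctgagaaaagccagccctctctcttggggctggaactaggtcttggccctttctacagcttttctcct
ITGA6, chr2:172427336-172427635, plus strand: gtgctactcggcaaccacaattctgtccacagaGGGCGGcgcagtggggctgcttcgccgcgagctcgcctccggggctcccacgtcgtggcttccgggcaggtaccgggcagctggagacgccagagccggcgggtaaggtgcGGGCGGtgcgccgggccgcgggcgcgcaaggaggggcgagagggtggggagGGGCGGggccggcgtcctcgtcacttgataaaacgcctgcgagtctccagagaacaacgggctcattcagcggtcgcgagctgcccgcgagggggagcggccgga
COL17A1, chr10:104085831-104086130, minus strand: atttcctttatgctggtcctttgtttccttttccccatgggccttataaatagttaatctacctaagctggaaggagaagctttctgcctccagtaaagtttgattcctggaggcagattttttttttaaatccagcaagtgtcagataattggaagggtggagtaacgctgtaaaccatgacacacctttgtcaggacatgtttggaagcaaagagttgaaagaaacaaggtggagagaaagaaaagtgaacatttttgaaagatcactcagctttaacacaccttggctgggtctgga
The window of LAMA3, which belongs to a start site 183577 bases inside the counted gene, held AP-1 letters at 125 and at 69 bases before the start site. The third of 3 windows of LAMB3 held them at 67 bases before the start, and 1 window of DST held them at 25 bases after it, whereas the windows of ITGA6 and COL17A1 held none. Of 35116 windows in the table, 7.71% held at least 1 match and 0.515% held 2 or more. GC box letters occurred 3 times in the printed window of ITGA6, once each in those of LAMA3 and LAMB3 and not in that of COL17A1, against 45% of all windows with at least 1. These are matches of letters, and binding was not measured.

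To determine which members differed upon HGF in each line, counts were tested with the quasi-likelihood test of edgeR in 1 model of all 18 libraries, and genes with a Benjamini-Hochberg adjusted p-value below 0.1 that also changed by 0.4 or more on the log2 scale, the thresholds of the study, were called. In Detroit 562, 3 of 8 members were called, all higher with HGF, against 17.9% of all genes in either direction and 6.16% with higher counts. ITGA6 rose 1.59-fold (log2 fold change 0.67, SE 0.18, edgeR adjusted p = 0.0144). LAMA3 rose 1.52-fold (0.60, SE 0.22, edgeR adjusted p = 0.0571) and COL17A1 rose 1.45-fold (0.53, SE 0.19, edgeR adjusted p = 0.0482). DST had a log2 fold change of 0.34 (edgeR adjusted p = 0.104) and PLEC of 0.27 (edgeR adjusted p = 0.313). The 95% confidence intervals of the log2 fold changes ran from −0.19 to 0.34 for LAMB3, from −0.18 to 0.25 for ITGB4 and from −0.25 to 0.19 for CD151. The median log2 fold change of the 8 members was 0.30, and that of all genes was −0.01.

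The calls of LAMA3 and COL17A1 in Detroit 562 depended on single libraries. Without HGF repeat 3 the log2 fold change of LAMA3 was 0.29 (edgeR adjusted p = 0.354) and that of COL17A1 was 0.36 (edgeR adjusted p = 0.225), and without control repeat 1 or 2 LAMA3 had 0.51 in both cases and COL17A1 had 0.46 and 0.41, none of them called. LAMA3 was also not called when the 6 libraries of Detroit 562 were fitted alone (0.61, edgeR adjusted p = 0.11). DST, in turn, was called without control repeat 3 (0.46, edgeR adjusted p = 0.0339) and without HGF repeat 1 (0.48, edgeR adjusted p = 0.0269). ITGA6 stayed called without any 1 of the 6 libraries, with log2 fold changes from 0.46 to 0.95. The control and HGF libraries of 1 repeat deviated together from their group means, and a model with the repeat as a block within each line gave smaller errors. In that model ITGA6 (0.69, SE 0.05, edgeR adjusted p = 1.59e-07), LAMA3 (0.58, SE 0.08, edgeR adjusted p = 4.44e-05) and COL17A1 (0.54, SE 0.05, edgeR adjusted p = 4.5e-07) were called in Detroit 562, as in the model without it, against 21.5% of all genes and 7.13% with higher counts. DST (0.32, edgeR adjusted p = 0.00112) and PLEC (0.27, edgeR adjusted p = 0.00244) passed the p-value there but not the minimum fold, where 53.6% of all genes passed the p-value.

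In FaDu no member was called without the block, where 4 genes or 0.0258% were called in all. At an unadjusted p-value below 0.05 there were 4 members, LAMA3, ITGA6, ITGB4 and PLEC, against 8.06% of all genes, and DESeq2 called 0 members. With the block 3 of 8 were called, all higher with HGF, against 5.6% of all genes and 2% with higher counts. These were LAMA3 with a fold of 1.52 (log2 fold change 0.61, SE 0.09, edgeR adjusted p = 0.00048), ITGA6 with 1.45 (0.54, SE 0.05, edgeR adjusted p = 4.14e-05) and PLEC with 1.44 (0.53, SE 0.06, edgeR adjusted p = 0.000143). ITGB4 (0.32, edgeR adjusted p = 0.00464), COL17A1 (0.31, edgeR adjusted p = 0.000602) and DST (0.30, edgeR adjusted p = 0.0106) passed the p-value, as did 17.4% of all genes, but not the minimum fold. LAMB3 (0.16, edgeR adjusted p = 0.249) and CD151 (−0.02, edgeR adjusted p = 0.881) passed neither. ITGB4 crossed both thresholds only when repeat 2 was left out, at 0.41 with the block, and at 0.45 without the block and without HGF repeat 2 alone.

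In SCC-9 no member was called with or without the block, and 0% of all genes were called without and 1.97% with it. Only LAMB3 had an unadjusted edgeR p-value below 0.05 without the block, against 4.14% of all genes, and DESeq2 called 0 members. With the block, LAMA3 had a log2 fold change of 0.34 (SE 0.08, edgeR adjusted p = 0.0309) and ITGA6 of 0.24 (SE 0.05, edgeR adjusted p = 0.0163), both past the p-value, as were 5.29% of all genes, and under the minimum fold. LAMB3 had 0.27 (SE 0.08, edgeR adjusted p = 0.109), PLEC 0.19, DST 0.09, COL17A1 0.07, ITGB4 −0.04 and CD151 −0.06. When repeat 2 was left out, LAMA3 passed both thresholds at 0.41.

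**Figure D2:**
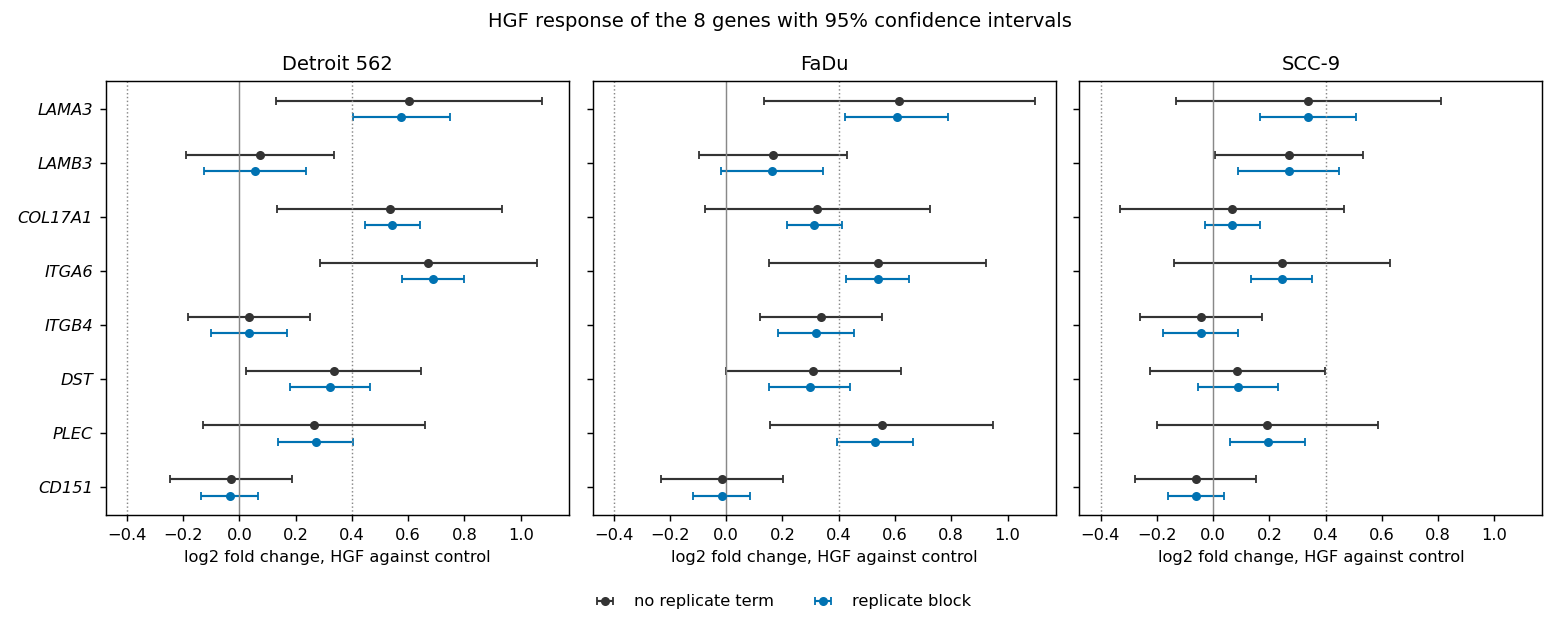
Log2 fold change of HGF against control for the 8 genes in each line, as points with 95% confidence intervals from edgeR without a term for the repeat (black) and with the repeat as a block (blue). Dotted lines mark the minimum log2 fold change of 0.4, and in Detroit 562 ITGA6, COL17A1 and LAMA3 lie beyond it while LAMB3, ITGB4 and CD151 lie near 0.

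Averaged over the 3 lines, ITGA6 was 1.40-fold higher with HGF (log2 fold change 0.49, SE 0.10, edgeR adjusted p = 0.00758) and LAMA3 1.43-fold higher (0.52, SE 0.13, edgeR adjusted p = 0.014). These were 2 of 8 members, against 6.89% of all genes called in either direction and 2.02% with higher counts. PLEC (0.34, edgeR adjusted p = 0.0379), COL17A1 (0.31, edgeR adjusted p = 0.0569) and DST (0.24, edgeR adjusted p = 0.0538) passed the p-value but not the minimum fold, where 28.2% of all genes passed the p-value. LAMB3 had 0.17, ITGB4 0.11 and CD151 −0.04.

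Next, the responses of the lines were compared with each other by the interaction of line and treatment, where the libraries of each line enter 2 of the 3 comparisons. Without the block no member differed between any pair of lines at an adjusted p-value below 0.1, by edgeR or by DESeq2. Of all genes, edgeR called 0.239% between Detroit 562 and FaDu, 0.924% between Detroit 562 and SCC-9 and 0% between FaDu and SCC-9. The unadjusted edgeR p-value was below 0.05 for 0 members between Detroit 562 and FaDu (11.6% of all genes), for 0 between Detroit 562 and SCC-9 (15.4%) and for 1, ITGB4, between FaDu and SCC-9 (2.18%). With the block, 3 of 8 members differed between Detroit 562 and FaDu (19.1% of all genes), 3 of 8 between Detroit 562 and SCC-9 (26.9%) and 2 of 8 between FaDu and SCC-9 (1.32%). The largest difference was that of COL17A1, whose log2 fold change was higher by 0.47 in Detroit 562 than in SCC-9 (SE 0.06, edgeR adjusted p = 0.000261). For ITGA6 the response was higher by 0.44 in Detroit 562 than in SCC-9 (SE 0.07, edgeR adjusted p = 0.000953). ITGB4 went the other way between Detroit 562 and FaDu, with a difference in log2 fold change of −0.28 for Detroit 562 minus FaDu (SE 0.09, edgeR adjusted p = 0.0502). For LAMA3 no difference was called, with edgeR adjusted p-values with the block of 0.9, 0.154 and 0.458 for the pairs in the same order.

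Because the products of ITGA6 and ITGB4 join in α6β4 and those of LAMA3 and LAMB3 in laminin-332, the ratio of partner genes was also formed within each library. Such a ratio needs no scaling between libraries. The α6 subunit also pairs with β1, so no fixed ratio of ITGA6 to ITGB4 is implied. The ratio of ITGA6 to ITGB4 in Detroit 562 was 0.717, 0.831 and 1.19 in control repeats 1, 2 and 3 and 1.13, 1.27 and 1.91 with HGF. In FaDu it was 0.389, 0.464 and 0.474 without and 0.501, 0.561 and 0.480 with HGF, and in SCC-9 it was 0.387, 0.340 and 0.383 without and 0.483, 0.392 and 0.482 with HGF. All HGF libraries lay above all controls in FaDu and SCC-9, and in Detroit 562 control repeat 3 lay above HGF repeat 1. The mean log2 ratio was higher with HGF in Detroit 562 by 0.65 ± 0.03 (SD over 3 pairs), in FaDu by 0.22 ± 0.18 and in SCC-9 by 0.29 ± 0.07. The 2-sided exact permutation p was 0.2, 0.1 and 0.1, where 0.1 is the smallest that 3 against 3 can give (0.36, 0.3 and 0.3 after adjustment over 9 tests). For each ratio, that test took the libraries of a line as unpaired, so its p-values do not measure the spread over pairs.

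The ratio of LAMA3 to LAMB3 was 0.447, 0.491 and 0.719 in control and 0.672, 0.763 and 0.906 in HGF-treated Detroit 562. The values were 0.198, 0.252 and 0.231 without and 0.269, 0.307 and 0.350 with HGF in FaDu, and 1.60, 1.56 and 1.5 without and 1.69, 1.59 and 1.60 with HGF in SCC-9. The mean log2 ratio was higher in Detroit 562 by 0.52 ± 0.16, in FaDu by 0.44 ± 0.16 and in SCC-9 by 0.07 ± 0.03 (2-sided exact permutation p = 0.2, 0.1 and 0.3, adjusted 0.36, 0.3 and 0.386). The FaDu groups did not overlap, while the groups of both other lines did. For DST to PLEC the mean log2 ratio differed by 0.05 ± 0.16, −0.23 ± 0.12 and −0.10 ± 0.05 in Detroit 562, FaDu and SCC-9 (2-sided exact permutation p = 0.9, 0.3 and 0.4), and it was lower with HGF in all 3 pairs of FaDu and SCC-9 and higher in 2 of 3 pairs of Detroit 562. Over all 9 pairs, the mean log2 ratio rose by 0.39 for ITGA6 to ITGB4 and by 0.34 for LAMA3 to LAMB3. Each was higher in 9 of 9 pairs. A sign-flip test chosen after seeing the data gave its smallest possible value for both (2-sided exact p = 0.00391, adjusted 0.00586 over 3 ratios). That value follows from the 9 of 9 pairs already seen and adds no support to them. The 9 pairs are also 3 repeats of each of 3 lines. For DST to PLEC the mean change was −0.10, with 2 of 9 pairs higher (2-sided exact sign-flip p = 0.105).

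**Figure D3:**
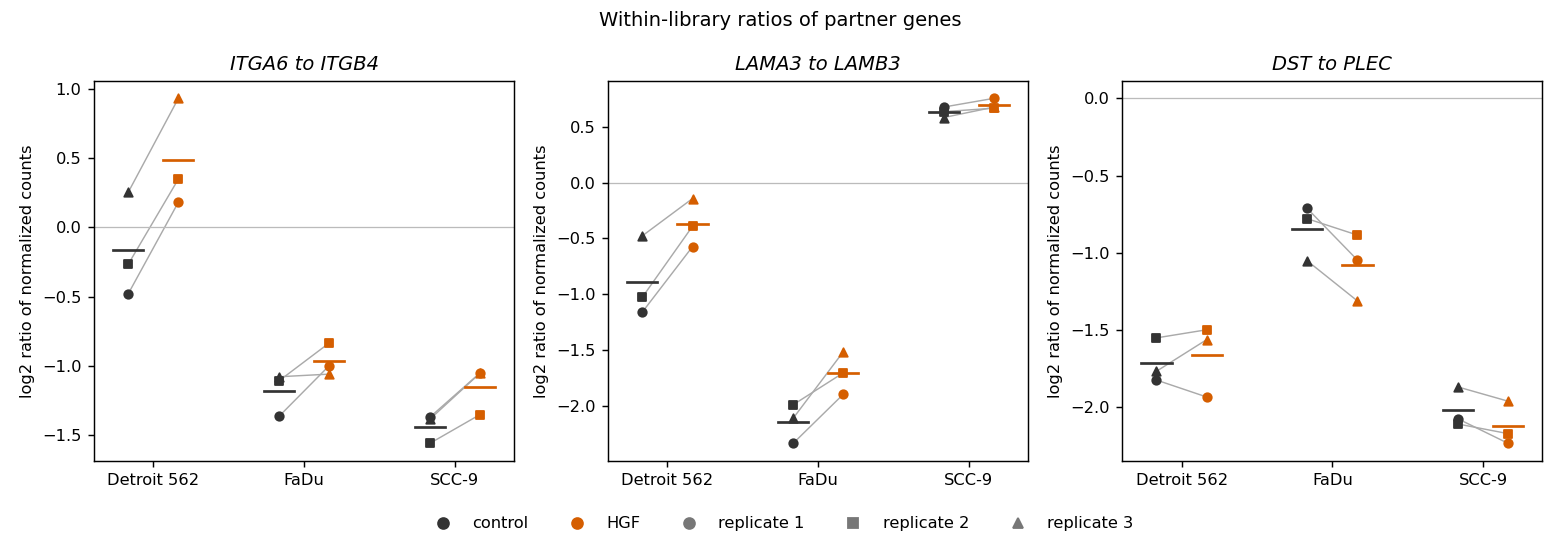
Log2 ratio of the normalized counts of partner genes in each library, with bars for group means and gray lines joining libraries of the same repeat. The ratio of ITGA6 to ITGB4 and that of LAMA3 to LAMB3 rise in 9 of 9 pairs, whereas DST to PLEC falls in 7 of 9.

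Several markers were lower with HGF in Detroit 562, where the called members were higher. The basal squamous markers summed to between 1590 and 2710 CPM in control and between 673 and 1580 in HGF-treated Detroit 562, and to between 4450 and 7250 and between 2660 and 6070 in FaDu and between 4040 and 5370 and between 3630 and 4540 in SCC-9. In Detroit 562 the epithelial markers summed to between 3670 and 4800 without and between 2770 and 3550 with HGF, and the fibroblast list to between 29.8 and 54.2 without and between 15 and 27.6 with HGF. The epithelial sums of control and HGF libraries overlapped in both other lines. In FaDu they lay between 3160 and 6260 without and between 3650 and 4790 with HGF. In SCC-9 they lay between 1430 and 1540 without and between 1460 and 1600 with HGF. Of these markers, KRT5, CDH1, KRT8, COL1A1 and COL1A2 were called lower with HGF in Detroit 562. EPCAM went the other way (0.21, edgeR adjusted p = 0.0968) but was under the minimum fold, and KRT18 (−0.27), TP63 (−0.37) and KRT14 (−0.20) were not called. In FaDu, KRT5, COL1A1 (−0.59) and CDH5 (−0.86) were called lower with the block. The part of these markers in the values of the 8 genes was not tested.

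Around the 8 genes, 5 lists of related genes were examined. Among 12 partners and anchoring proteins of laminin-332, 2 were called higher and 5 lower with HGF in Detroit 562 (17.9% of all genes were called). ITGB1, the partner of α3 and of α6 outside hemidesmosomes, rose by 0.49 on the log2 scale (edgeR adjusted p = 0.00978), and FERMT1, the integrin activator kindlin-1, by 0.99 (edgeR adjusted p = 0.00312). COL7A1, the collagen of the anchoring fibrils, fell by 0.90 (edgeR adjusted p = 0.0289), the basal keratin gene KRT5 fell by 0.90 (edgeR adjusted p = 0.0451) and the laminin receptor gene DAG1 fell by 0.65 (edgeR adjusted p = 0.00612). The median over this list was −0.30, whereas that of the 8 members was 0.30.

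In Detroit 562, 954 of all 15475 genes were called higher and 1812 lower without the block, and 1104 and 2223 with it. Of 9 other laminin chain genes, LAMB2 was called in Detroit 562 and fell by 0.79 (edgeR adjusted p = 0.00105), and none was called higher. Among 5 other plakins, the cornified envelope proteins EVPL (−0.49, edgeR adjusted p = 0.00233) and PPL (−0.70, edgeR adjusted p = 0.0047) were lower and none was called higher without the block. Of 11 other tetraspanins, CD82 (−0.86, edgeR adjusted p = 0.0074), CD9 (−0.52, edgeR adjusted p = 0.0202) and TSPAN15 (−0.50, edgeR adjusted p = 0.0726) were lower and none was higher. Among 9 genes of signaling at hemidesmosomes, the kinase gene FYN was higher (0.44, edgeR adjusted p = 0.0192), and the protein kinase C genes PRKCA (−0.48, edgeR adjusted p = 0.00717) and PRKCD (−0.49, edgeR adjusted p = 0.00266) were lower. With the block, 3 further genes of these lists were called in Detroit 562, where the plakin gene MACF1 was higher (0.41, edgeR adjusted p = 0.0179) and LAMB4 (−1.07, edgeR adjusted p = 0.0407) and TSPAN8 (−0.47, edgeR adjusted p = 0.0833) were lower. In FaDu and SCC-9 no gene of the 5 lists was called without the block. With it, 2 genes were higher in FaDu, ITGA3 (0.46) and MACF1 (0.46), 2 were lower, KRT5 (−0.58) and TSPAN15 (−0.44), and none was called in SCC-9. Of all 15475 genes, 310 were called higher and 557 lower in FaDu with the block. The names given for the model with the block were chosen after their values were seen.

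To see how the lines differed before treatment, the untreated groups were compared. SCC-9 had the highest mean level of LAMA3, LAMB3, ITGB4 and CD151, Detroit 562 that of COL17A1, ITGA6, DST and PLEC, and FaDu had the lowest of all 8. The widest range was that of LAMA3, whose normalized count was 53787 ± 6607 (SD, n = 3) in SCC-9, 12084 ± 2715 in Detroit 562 and 1847 ± 359.7 in FaDu. Relative to FaDu, SCC-9 had 29.1-fold more LAMA3 (log2 difference of FaDu minus SCC-9 −4.86, edgeR adjusted p = 4.08e-11), and Detroit 562 had 6.54-fold more (2.71, edgeR adjusted p = 2.32e-08).

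All 8 members were higher in Detroit 562 than in FaDu, where 61% of all genes were called and 31.2% were higher. After LAMA3 the largest differences were those of ITGA6 (4.92-fold, edgeR adjusted p = 1.04e-08), PLEC (2.78-fold, edgeR adjusted p = 2.38e-06) and LAMB3 (2.72-fold, edgeR adjusted p = 2.07e-08). ITGB4 was 2.37-fold, COL17A1 2.28-fold, DST 1.53-fold and CD151 1.47-fold higher. Between FaDu and SCC-9, 7 of 8 were lower in FaDu, where 64.2% of all genes were called and 33.5% were lower. LAMA3 was followed by ITGB4 (4.36-fold, edgeR adjusted p = 1.7e-11), LAMB3 (4.28-fold, edgeR adjusted p = 2.08e-10) and ITGA6 (3.64-fold, edgeR adjusted p = 1.1e-07). DST was not called, with a log2 difference of −0.10 and a 95% confidence interval from −0.41 to 0.21.

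Detroit 562 and SCC-9 differed in both directions, with 5 of 8 members called against 65.4% of all genes (31.4% higher and 33.9% lower in Detroit 562). LAMA3 (4.45-fold, edgeR adjusted p = 2.37e-07), ITGB4 (1.84-fold, edgeR adjusted p = 6.84e-07) and LAMB3 (1.57-fold, edgeR adjusted p = 0.000151) were lower in Detroit 562. DST was 1.43-fold higher (edgeR adjusted p = 0.0045) and ITGA6 1.35-fold higher (log2 difference 0.44, edgeR adjusted p = 0.0377) there. Both of the latter calls were lost without control repeat 3 of Detroit 562, with log2 differences of 0.39 and 0.16, and with the block the difference of ITGA6 was 0.397, just under the minimum fold. COL17A1, PLEC and CD151 were not called, with 95% confidence intervals of the log2 difference from −0.22 to 0.58, from −0.18 to 0.61 and from −0.36 to 0.07.

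Levels of different genes can be compared only per length, for which CPM values were divided by the merged exon length of all annotated transcripts. On this scale (CPM per kb of exon) ITGB4 was the highest of the 8 genes in untreated SCC-9 with 223.4 ± 12.8 (SD, n = 3), followed by LAMB3 with 185.6 ± 16.8. LAMA3, with 92.6 ± 11.4, and COL17A1, with 92.6 ± 3.55, did not differ beyond their spread. In untreated Detroit 562, ITGB4 (121.6 ± 5.50), LAMB3 (118.3 ± 7.22), ITGA6 (113 ± 34.5) and COL17A1 (104.9 ± 26.3) were within their spread of each other, and LAMA3 stood at 20.8 ± 4.67. In untreated FaDu, ITGB4 (51.3 ± 2.76), COL17A1 (46.1 ± 9.11) and LAMB3 (43.4 ± 3.44) came first, and LAMA3 came last with 3.18 ± 0.62. DST ranged from 4.69 to 7.18 in the untreated groups, but its length of 48142 exon bases merges 41 transcripts and its count includes reads in introns, so its level per length is approximate. The same holds for LAMA3, with 14488 bases over 15 transcripts. Reads in introns enter the counts of all 8 genes, so the levels per length of the others are approximate too.

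**Figure D4:**
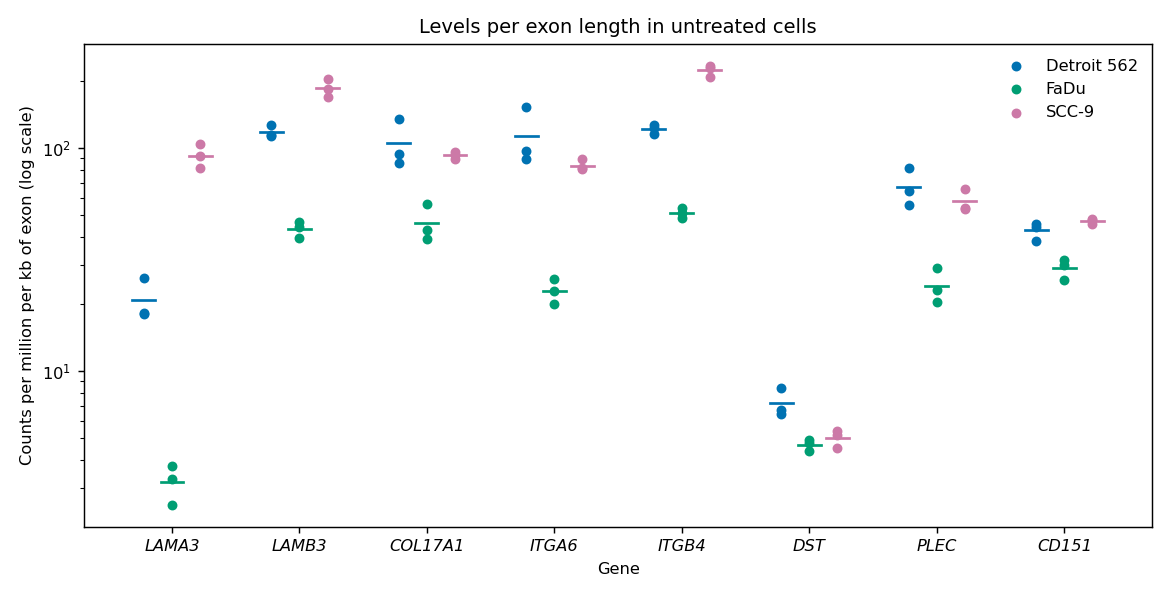
Levels of the 8 genes in untreated cells, in CPM per kb of merged exon length on a log axis, with a point for each library and a bar for the mean of 3. LAMA3 spreads from about 3.18 in FaDu to 92.6 in SCC-9, whereas the lines lie closer together for DST and CD151. The widest called differences between lines were 1.53-fold for DST and 1.63-fold for CD151.

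Finally, the members were compared with each other and with all other genes over the 18 libraries after subtraction of the mean of each line, so that only treatment and repeat vary. The Pearson correlation was 0.922 between LAMA3 and ITGA6, 0.906 between COL17A1 and ITGA6 and 0.891 between COL17A1 and PLEC. ITGB4 correlated with ITGA6 at 0.444 only and with PLEC at 0.724, and LAMB3 correlated with LAMA3 at 0.772. CD151 was negatively correlated with each other member, from −0.313 with ITGB4 to −0.75 with DST. Libraries of 1 repeat share their culture, so these values describe 18 libraries that are not independent.

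Among 13150 genes with a mean normalized count of at least 50, the pattern of LAMA3 was most like that of ITGA2, the collagen-binding integrin subunit (r = 0.983), of SYNJ2 (0.957) and of AKAP12 (0.956). That of ITGA6 was most like those of LRRC8C (0.979), IL18R1 (0.974) and RP11-302M6.4 (0.972), and that of COL17A1 like those of PLAUR, the urokinase receptor gene (0.969), MICAL1 (0.964) and SH2D5 (0.961). For LAMB3 the most similar were CDCP1 (0.898), NEDD4L (0.863) and UHRF2 (0.832), and for ITGB4 they were LTBP2 (0.908), MMP9 (0.874) and SPHK2 (0.867). DST was most like TET3 (0.969), RANBP2 (0.958) and RGPD8 (0.948), of which the latter pair are near-identical relatives whose reads can be split between them. PLEC was most like KMT2B (0.916) and PEAR1 (0.914), and CD151 like CAMTA1 (0.945), NENF (0.942) and SCAND1 (0.933).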

How the data were processed

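The authors made libraries with a stranded mRNA kit, removed adapters with cutadapt 1.16, aligned the reads with STAR 2.5.2b to GRCh38.p12 and counted with bedtools the reads that overlap each GENCODE gene from start to end, introns included (versions from the submitters' processing notes; the methods also name a later release of cutadapt). The values deposited by the authors are raw counts per gene, whole numbers without normalization. None of the 8 genes overlaps another counted gene on its strand, and all columns were assigned to a labelled sample. The authors compared groups with DESeq2 1.22.1.

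Counts were tested in R 4.3.3 with edgeR 4.0.16 (filterByExpr on the 6 groups, TMM scaling, glmQLFit and glmQLFTest), with all 18 libraries in 1 model and Benjamini-Hochberg adjustment over 15475 genes. Genes were called where the adjusted p-value was below 0.1 and the log2 fold change 0.4 or more in size, and differences in response at the adjusted p-value alone. Normalized counts were scaled to the mean effective library size. Libraries held 35304770 to 44003970 counts, and no member had fewer than 1536 in any of them, and the number of repeats limits the precision.

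The experiment was repeated, and the labels number the repeats. Over all genes, deviations from the group mean of control and HGF libraries with the same number correlated at 0.376 to 0.707 in all 3 lines, with a mean from −0.31 to −0.218 for different numbers, so the numbers were taken to pair the libraries, and a fit with the repeat of each line as a block is given where it changes a call. In simulated counts for Detroit 562 over 15475 genes, with 200 genes changed by a log2 fold change of 1 and a repeat effect with an SD of 0.3, the fit recovered 49% of the changed genes without and 88% with the block, and 1.01% and 6.88% of the calls were false. Without a repeat effect it recovered 77% without and 75.5% with the block, and 8.88% and 11.2% of the calls were false. The runs with a repeat effect were also given a smaller remaining spread between libraries, which was not matched to the data. The shares with and without a repeat effect therefore differ by more than that effect. Alternatives were DESeq2 1.42.0 with and without its fold change prior, its size factors in edgeR, other filters, other thresholds, each line alone and leaving out each library. The block without each repeat and the test over 9 pairs were added after seeing the data.

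The 8 genes, the related lists and the markers were chosen with earlier results of these data known. All members are named in each comparison. Genes of the lists are named where called, at most 5 per list by absolute log2 fold change, and for likeness the 3 genes with the highest correlation to each member, of which one for PLEC is not reported here. Exon lengths came from GENCODE release 44 (GRCh38), whereas the counts were made with release 28, so levels per length are approximate. The tests do not use these lengths. Promoter windows came from RefSeq (GRCh38.p14), matched by symbol.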

Additional observations from a re-analysis of the deposited data

Results flagged for a closer look

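Between lines, 8 differences in the response to HGF passed an edgeR adjusted p-value of 0.1 in the fit with the replicate block, and none did without it. In log2 fold change, COL17A1 responded more in Detroit 562 than in FaDu by 0.23 (edgeR adjusted p = 0.0317) and more than in SCC-9 by 0.47 (edgeR adjusted p = 0.000261). ITGA6 responded more in Detroit 562 than in SCC-9 by 0.44 (edgeR adjusted p = 0.000953) and more in FaDu than in SCC-9 by 0.29 (edgeR adjusted p = 0.0922). For ITGB4 the difference was −0.28 for Detroit 562 minus FaDu (edgeR adjusted p = 0.0502) and 0.36 for FaDu minus SCC-9 (edgeR adjusted p = 0.0879). PLEC had −0.26 for Detroit 562 minus FaDu (edgeR adjusted p = 0.0717), and DST had 0.23 for Detroit 562 minus SCC-9 (edgeR adjusted p = 0.099). When each repeat was left out in turn, the differences of COL17A1 and of ITGA6 between Detroit 562 and SCC-9 passed each time, with adjusted p-values up to 0.0187 and 0.0311, whereas each of the other 6 was lost without at least 1 repeat. Those of ITGA6 and ITGB4 between FaDu and SCC-9 were lost whichever repeat was left out (edgeR adjusted p of at least 0.155 and 0.168). With 3 libraries in each group, single libraries were not tested as outliers.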

How the results depend on the processing

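For single genes, 996 of 1056 alternative values kept their direction and their side of the thresholds, 36 crossed the thresholds upwards, 10 were lost and 14 changed sign. Sign changes touched only values that were not called, among them COL17A1 in untreated Detroit 562 against SCC-9, with 0.18 in the main fit. Without 1 library each, log2 fold changes in Detroit 562 ranged from −0.0924 to 0.201 for LAMB3, from −0.0136 to 0.0684 for ITGB4 and from −0.134 to 0.0646 for CD151. CD151 ranged from −0.0941 to 0.0858 in FaDu and from −0.0698 to 0.000176 averaged over the lines, and COL17A1 from −0.0435 to 0.305 in untreated Detroit 562 against SCC-9. Without a filter on low counts CD151 in FaDu was 0.00012. With the replicate block and without 1 repeat, LAMB3 (−0.12) and ITGB4 (−0.00748) in Detroit 562 and CD151 in Detroit 562 (0.0199) and FaDu (0.00824) changed sign. This value of LAMB3, from the fit without repeat 3, passed the p-value (edgeR adjusted p = 0.0921) but not the minimum fold. DST to PLEC in Detroit 562 ranged from −0.0339 to 0.184 without 1 library and changed sign in 3 of these 6 cases.

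The replicate block changed the number of members called from 0 to 3 in FaDu, and the number that differed in response from 0 to 3 for Detroit 562 against FaDu, from 0 to 3 for Detroit 562 against SCC-9 and from 0 to 2 for FaDu against SCC-9. With the block and without 1 repeat each, these numbers ranged from 3 to 4, from 1 to 2, from 2 to 3 and from 0 to 2, and in SCC-9 they ranged from 0 to 1. The members that passed for FaDu against SCC-9 without 1 repeat did not include ITGA6 or ITGB4. In untreated cells a block within the line removes the spread between repeats, so its p-values there are too small. Without the block and without 1 library each, the count was 1 to 4 in Detroit 562, 0 to 1 in FaDu, 0 to 1 for the difference between Detroit 562 and SCC-9 and 3 to 5 for their untreated cells. With thresholds of 0.05 for the adjusted p-value and 1 for the log2 fold change, there were 0 in Detroit 562, 0 averaged over the lines and 1 in untreated Detroit 562 against SCC-9, and with no minimum fold there were 5 averaged over the lines. Over all genes, edgeR called 4 in FaDu and DESeq2 66, 0 and 19 in SCC-9, and with the block 867 and 305. The cause of these differences was not tested. Another scaling moved the median of all genes by less than 0.1.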
